A study of Mus musculus with 6 samples.

Results

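The transcripts described here are the non-coding RNAs and pseudogene transcripts of RefSeq, the curated NCBI collection, that an Agilent mouse array could measure in the kidney cortex. A probe was a member when it was a transcript probe whose RefSeq identifier begins with NR_, the prefix for RNAs with no annotated protein. Of 56605 distinct transcript probes on the array, 2477 were members, and in 828 of these every spot was called well above background on all 3 arrays of one genotype or the other. By the array's own descriptions, the 2477 comprised 119 pseudogene probes, 151 antisense probes, 17 host gene probes and 2190 probes of other non-coding RNA. The 828 that could be compared comprised 51, 48, 17 and 712 of these. The remaining members, the larger part of the list, were too dim to be compared, and they are not counted as unchanged.

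The arrays came from 3 samples of wild-type (WT) mice and 3 of C3aR-/- mice, which lack the receptor for the complement fragment C3a. All were renal cortex of male C57BL/6 mice from the control arm of a diabetes study. Those mice were 8 weeks old at the start, ate normal chow (10% fat), received the vehicle without streptozotocin, and were killed 20 weeks after induction. The design thus asks what differs in the cortex of mice without the receptor and without induced diabetes. The labels do not say that each sample was a separate mouse, so the p-values rest on the spread among these samples alone, which may be technical. How the receptor gene was disrupted is not stated in the labels.

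Long non-coding RNAs are transcripts that are often spliced and polyadenylated like messenger RNAs but have no known protein product. Pseudogenes are copies of genes that have lost their coding capacity, and antisense RNAs are read from the strand opposite to another gene. Host genes carry small RNAs inside their introns or exons, either small nucleolar RNAs (snoRNAs), which guide the chemical modification of ribosomal RNA, or microRNAs, which repress messenger RNAs by pairing through a short seed.

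The probes that carry the main findings are shown here 5′ to 3′ as deposited, all 60 bases long, with positions on mouse build mm9. Those of Ptma-ps2 (chr4:44136851-44136910, plus strand), Mir22hg (chr11:75280057-75280116, plus), Snhg6 (chr1:9932175-9932234, minus) and Rnu12 (chr15:82980096-82980155, plus) are a pseudogene, the host genes and the small RNA whose differences were called whichever single array was left out. The Norad pair (chr2:156216893-156216952 and chr2:156213822-156213881, minus) and the Kcnq1ot1 pair (chr7:150399016-150399052 and chr7:150410464-150410523, minus) are probes of 1 transcript each that did not give the same result. The position given for the first Kcnq1ot1 probe is shorter than the probe, so it covers only part of it. In the probes of Pitpnm2os1 (chr5:124687087-124687146, plus) and Ager (chr17:34737404-34737666, plus, in parts), capitals mark the run of letters that also occurs in a probe of another transcript. For the microRNA that Mir22hg is named after, which these probes do not measure, the mature RefSeq sequence is given with its seed (bases 2 to 8) in capitals (GRCm38.p6, chr11:75463772-75463793, plus). No gene model of mm9 was used, so exon positions of the probes are not given.
Ptma-ps2: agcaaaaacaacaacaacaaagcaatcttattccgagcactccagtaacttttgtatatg
Mir22hg: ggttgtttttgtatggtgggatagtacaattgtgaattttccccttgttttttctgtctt
Snhg6: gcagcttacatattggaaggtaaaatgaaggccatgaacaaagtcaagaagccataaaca
Rnu12: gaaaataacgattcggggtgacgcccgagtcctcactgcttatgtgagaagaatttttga
Norad, called probe: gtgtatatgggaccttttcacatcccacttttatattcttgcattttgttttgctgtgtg
Norad, probe nearest the 3′ end: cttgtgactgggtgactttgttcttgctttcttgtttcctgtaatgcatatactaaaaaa
Kcnq1ot1, called probe: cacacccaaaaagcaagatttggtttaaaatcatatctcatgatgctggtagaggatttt
Kcnq1ot1, probe not called: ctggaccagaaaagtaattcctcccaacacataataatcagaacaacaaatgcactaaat
Pitpnm2os1: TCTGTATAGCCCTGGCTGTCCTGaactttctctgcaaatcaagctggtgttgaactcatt
Ager, non-coding variant: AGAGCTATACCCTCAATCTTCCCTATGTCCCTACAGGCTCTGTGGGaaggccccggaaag
mmu-miR-22-3p: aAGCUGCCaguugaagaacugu

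Each array held 59305 transcript spots, none saturated, and their number of 3 per genotype limits the precision of each comparison. Slide 1 held the WT samples and slide 2 the C3aR-/- samples, so genotype and slide cannot be told apart in any result below. C3aR-/- replicate 1 stood apart, with 145 non-uniform spots against 2 to 8 on the other arrays, and counts are therefore also given without it. The probe of C3ar1, the receptor gene, lay near the floor in both genotypes and gave no check of the labels. Defining markers of the cortex were bright, with the 6 proximal tubule genes at a summed level (log2 of their summed signal) of 8.94 to 9.06 in WT and 9.17 to 9.20 in C3aR-/- cortex. The log2 change was above 0 in all 10 proximal tubule probes, and 3 were called higher (Slc5a12 and both Slc5a2 probes). Of 6 genes for B and plasma cells above background (of 7 on the list), Jchain, Mzb1 and Pou2af1 were called lower, and the summed level of the 6 was 1.67 to 2.14 in WT against -0.26 to -0.06 in C3aR-/- cortex. The 3 endothelial markers summed to 4.33 to 4.41 in WT and 3.89 to 4.14 in C3aR-/- cortex, with 1 called higher and 1 lower. The 3 collecting duct markers summed to 4.39 to 4.46 in WT and 4.82 to 5.06 in C3aR-/- cortex, with 2 called higher. Of 7 macrophage probes 2 (Csf1r and Cd68) were called lower and 0 higher, of 7 for T and NK cells 1 (Klrb1c) was called lower, and of 5 podocyte probes 1 (Nphs1) was called higher. In bulk tissue, fewer cells of a type and less RNA per cell cannot be told apart, and the part of these shifts in the results below was not tested. Levels are given as log2 signal with the array's own 75th percentile set to 0, and log2 changes as C3aR-/- minus WT.

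Among the 828 comparable non-coding probes, 113 differed between the genotypes at an adjusted p under 0.05, 40 higher and 73 lower in C3aR-/- cortex. That is 13.6% of the probes, where 11.7% of all 30930 probes tested were called. The same 11.7% is the share to set beside the count of each class and list below. Higher calls made up 4.83% of the non-coding probes and 6.18% of all probes, and lower calls 8.82% and 5.49%; this difference in direction was not tested. With each array's median in place of its 75th percentile, 57 were higher and 55 lower. That scaling moved the whole array alike: lower calls went from 64.6% to 49.1% of the called members and from 47.0% to 32.8% of all called probes, so their share among the members was above that of the array under both. With a term for the replicate number it was not (59.1% against 59.9%). It was little above without a filter (59.1% against 57.8%) or without WT replicate 1 (51.2% against 48.6%), and further above in the other settings. The median log2 change was 0.01 over the non-coding probes and 0.03 over all probes. Most changes were small, with a median size of 0.53 among the called probes. By the fitted change 18 of them reached 2-fold, of which 10 were higher and 8 lower. This split rests in part on dim WT values. B930025P03Rik, Ccdc169, AA388235, Ager and Olfr1372-ps1 were dim on all WT arrays, and their bounds, explained below, stay under 2-fold. Zim3 rose by a log2 change of 0.95 with its dim WT values raised as described below. The probes of the 8 falls were above background on every array. Calls of at least 2-fold made up 1.45% of all probes.

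The 113 called probes belonged to 113 different genes, and the genotypes did not overlap in any of them. They also did not overlap in 346 of the 828 (41.8%), where 39.6% of all probes tested had this property. Without C3aR-/- replicate 1 the count was 74 (23 higher, 51 lower), and 6.12% of all probes were then called. It was 41, 30 and 52 without WT replicates 1, 2 and 3, where 3.09%, 2.42% and 4.23% of all probes were called. It was 37 and 29 without C3aR-/- replicates 2 and 3, where 3.60% and 2.10% were. With each array left out in turn, 24 of the 113 kept their call throughout, 17 lower and 7 higher. Probes that passed only through C3aR-/- cortex, where they are brighter, numbered 62. Of these 10 were called higher and 8 of the 10 were at background on every WT array. Passing in this way favours probes that are brighter in C3aR-/- cortex, so nothing is read from their share. Another 13 passed only through WT.

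**Figure D1:**
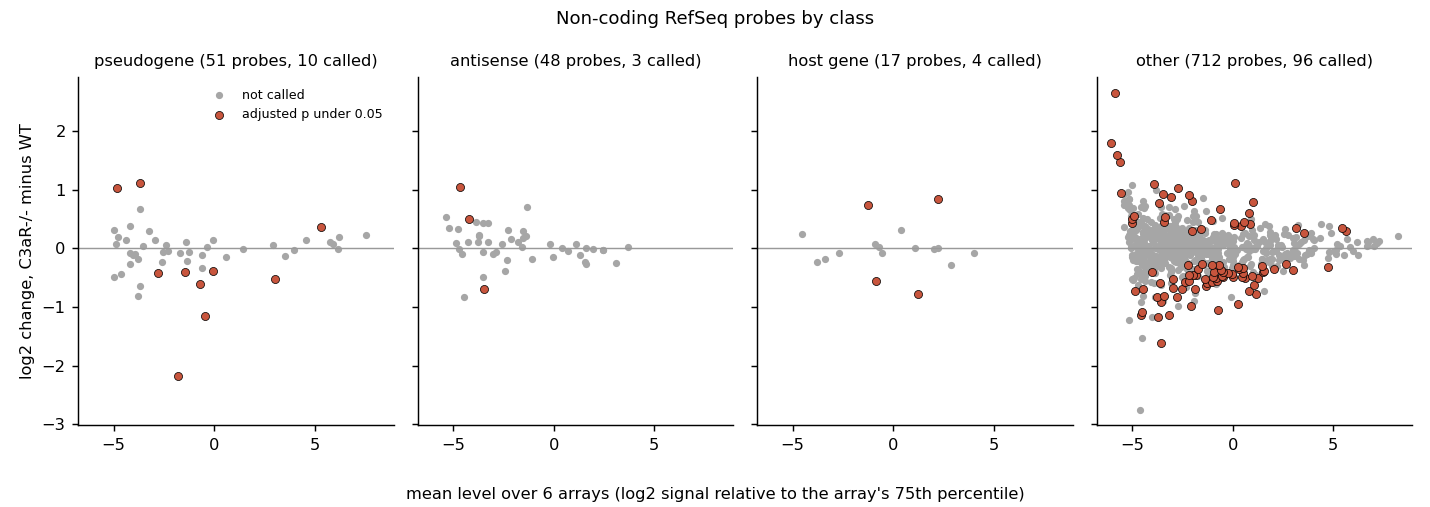
Log2 change (C3aR-/- minus WT, vertical axis) against the mean level over the 6 arrays (log2, 75th percentile of the array at 0, horizontal axis) for the 828 non-coding probes, in 4 panels by class. Each point is a probe, and red points have an adjusted p under 0.05; the 10 called pseudogene probes range from a fall by 2.18 to a rise of 1.11.

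Pseudogenes held the largest called fall of any member. Of 51 comparable pseudogene probes, 3 were higher and 7 lower, and 41 were not called. The called share was 19.6%, against 11.7% of all probes tested. The median log2 change of the class was -0.04. The count of 10 fell to 6 without C3aR-/- replicate 1 and to 4 or 5 with any other single array left out.

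Ptma-ps2 is by its symbol a copy of Ptma, the gene of prothymosin alpha, a small acidic nuclear protein of dividing cells. In replicate order, WT cortex had levels of -0.78, -0.70 and -0.70, and C3aR-/- cortex had -2.77, -3.06 and -2.89. The 2 genotypes were widely separated, with an SD of 0.05 in WT and 0.14 in C3aR-/- cortex (n = 3 each). The log2 change was -2.18 (SE 0.09, adjusted p = 0.00194), that is 4.54-fold lower. Of 3 probes of the parent gene Ptma, none was called, and their log2 changes lay between -0.03 and 0.25.

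Cyp4b1-ps2 is a copy of Cyp4b1, a cytochrome P450 of fatty acid and xenobiotic oxidation. It lies at chr4:115254696-115254755 among related P450 genes. Its level was 0.04, 0.22 and 0.06 in WT and -1.05, -0.83 and -1.25 in C3aR-/- cortex. All WT values lay above all C3aR-/- values. The log2 change was -1.15 (SE 0.12, adjusted p = 0.00872), while the 1 Cyp4b1 probe differed by 0.12 (adjusted p = 0.326). The nearest coding probe, of the fatty acid hydroxylase gene Cyp4a31 on the opposite strand 3143 bases away, was called in the opposite direction (log2 change 0.88, SE 0.17, adjusted p = 0.0303).

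Pdxk-ps, a copy of the vitamin B6 kinase gene Pdxk, was higher. Its level was -4.51, -4.42 and -3.86 in WT and -3.13, -3.13 and -3.18 in C3aR-/- cortex. WT replicate 3 was the nearest to the C3aR-/- arrays, and the genotypes did not overlap. The log2 change was 1.11 (SE 0.17, adjusted p = 0.0199), and the call was lost without WT replicates 1 or 2 or C3aR-/- replicates 2 or 3, with adjusted p-values up to 0.0679. Of the 2 probes of Pdxk itself, the brighter differed by 0.10 (adjusted p = 0.646) and the other by 0.70 (adjusted p = 0.0262).

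Zfp133-ps, a copy of a zinc finger gene, was at -0.51, -0.36 and -0.34 in WT and at -0.99, -1.02 and -0.997 in the C3aR-/- samples (log2 change -0.60, SE 0.07, adjusted p = 0.0105). Its probe shares 20 to 21 letters with 5 probes of other transcripts, none of which was called. The olfactory receptor pseudogene Olfr1372-ps1 was dim on all WT arrays, that is, not well above background, and was at least 1.73-fold higher in C3aR-/- cortex by 1 probe (adjusted p = 0.00873). Such a bound sets the dim genotype, array by array, to the dimmest signal that still counted as well above background, or to the probe's own if that was higher. An adjusted p beside a bound tests the fitted change, which uses the dim values as measured, and not the bound. The other Olfr1372-ps1 probe, above background on all 6 arrays, differed by -0.19 (adjusted p = 0.612).

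Of the other 5 called pseudogene probes, Gm6981 was higher (log2 change 0.35), and Pisd-ps3 (-0.53), Rdh18-ps (-0.42), Gm10416 (-0.40) and Smarca5-ps (-0.39) were lower. Each of these 5 lost its call without at least 5 of the 6 arrays, with adjusted p-values up to 0.135. Pisd-ps3 is named after the phosphatidylserine decarboxylase gene Pisd, and Smarca5-ps after a chromatin remodeller gene. The second Pisd-ps3 probe differed by -0.04 (adjusted p = 0.851), and the second Smarca5-ps probe by -0.12 (SE 0.30, adjusted p = 0.807). The other Gm6981 probes differed by 0.10 and 0.19, and neither was called.

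A coding parent with a comparable probe could be assigned by symbol to 17 pseudogene probes, of 14 parents. In 5 of them the pseudogene was called, and in 0 of the 5 was the parent's brightest probe called as well. Both had the same sign in 12 of the 17 pairs, and their log2 changes had a Pearson r of 0.18 across the pairs. Pairs share the 6 arrays, and several share a parent, so this is a description only.

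**Figure D2:**
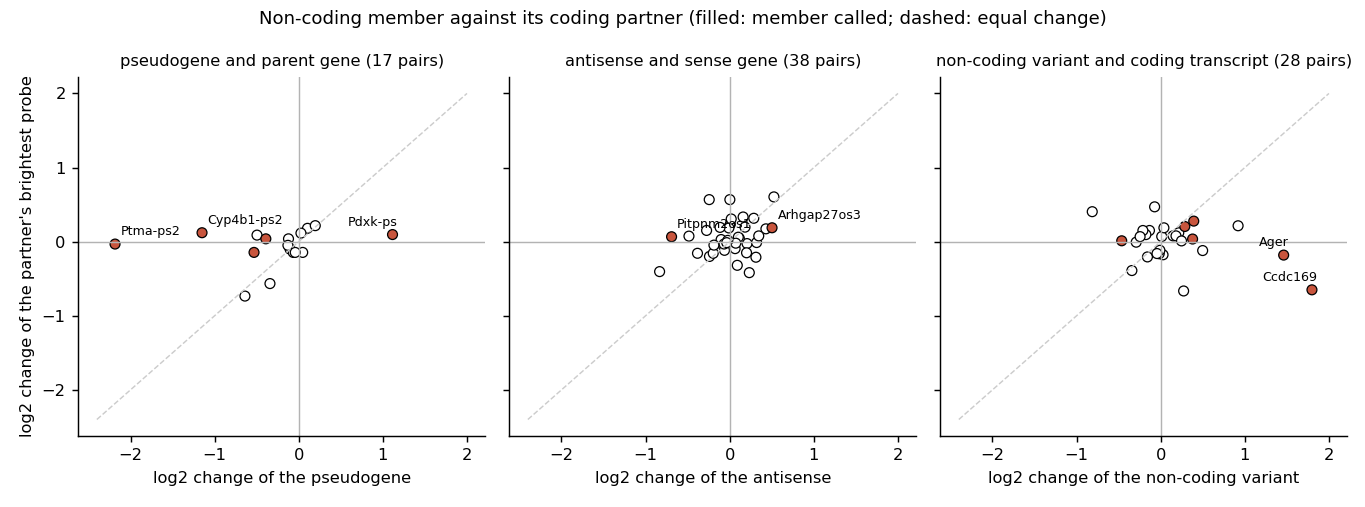
Log2 change of the non-coding member (horizontal axis) against that of the brightest probe of its coding partner (vertical axis), C3aR-/- minus WT, for 17 pseudogene, 38 antisense and 28 non-coding variant probes. Red points are called members and the dashed line marks equal change; Ptma-ps2 lies at -2.18 on the horizontal and -0.03 on the vertical axis.

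Of 48 comparable antisense probes, 2 were called higher and 1 lower (6.25% of them, against 11.7% of all probes tested), with a median log2 change of 0.04. The count was 3 in all, and it was 5, 6 and 7 with median scaling, with quantile normalisation and with normexp background correction before quantile normalisation. It was 2 without C3aR-/- replicate 1, 2 or 3 or WT replicate 1 or 2. The genotypes did not overlap in 24 of the 48 (50.0%, against 39.6% of all probes).

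Pitpnm2os1, read opposite to the phosphatidylinositol transfer protein gene Pitpnm2, was at -3.22, -3.05 and -3.15 in WT and at -3.85, -3.73 and -3.91 in C3aR-/- cortex. The genotypes did not overlap, and the log2 change was -0.69 (SE 0.08, adjusted p = 0.0103). Of the 3 probes of Pitpnm2, the brightest differed by 0.07 and the lowest by -0.36, and none was called. The first 23 letters of the Pitpnm2os1 probe, in capitals above, also occur in a probe of the amino acid transporter gene Slc3a2, which was lower too (log2 change -0.41, adjusted p = 0.0319). The part of this overlap in the value was not tested.

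Zim3, an imprinted zinc finger gene that the array lists as an antisense RNA, rose above background on a single WT array (1 of 3) and on all 3 C3aR-/- arrays. Its level was -5.15, -5.02 and -5.43 in WT and -4.11, -4.18 and -4.17 on the C3aR-/- arrays (log2 change 1.05, SE 0.11, adjusted p = 0.00901). It passed through C3aR-/- cortex alone, and with dim WT values raised to the dimmest signal well above background on their array the difference was 0.95. Arhgap27os3, opposite to Arhgap27, differed by 0.50 (SE 0.10, adjusted p = 0.0346), and this call was lost without any one of the 6 arrays. Its sense gene differed by 0.19 (adjusted p = 0.306).

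Sense partners were comparable for 38 antisense probes, of 36 genes. In 22 pairs both had the same sign, with a Pearson r of 0.26 across pairs. In 0 pairs were both called, in 2 the antisense probe alone and in 5 the sense gene's brightest probe alone. Several antisense RNAs of kidney development genes were measured well and not called. Examples, chosen after their values were seen, are Hnf4aos, opposite to the gene of the tubular transcription factor HNF4A, with a log2 change of -0.01 (adjusted p = 0.974), and Lhx1os, opposite to a gene of early nephron formation, with 0.02 (adjusted p = 0.857). The 2 Hoxb5os probes differed by 0.00 and -0.24 (adjusted p = 0.99 and 0.0675).

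All 17 probes that the array describes as host genes were comparable. Of these 2 were higher and 2 lower (23.5% of them, against 11.7% of all probes tested). Some hosts that the array describes otherwise were too dim to compare, as given below for microRNA hosts. The genotypes did not overlap in 4 of the 17 (23.5%, against 39.6% of all probes). The median log2 change of the class was -0.02. The count of 4 was 2 without WT replicate 1, WT replicate 2 or C3aR-/- replicate 3, and 4 without C3aR-/- replicate 1. Snhg6, a snoRNA host, was at 1.73, 1.76 and 1.89 in WT and at 2.74, 2.51 and 2.63 in C3aR-/- cortex. Every C3aR-/- array lay above every WT array. On the log2 scale it rose by 0.84 (SE 0.09, adjusted p = 0.00829), a 1.78-fold rise.

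Snhg1, which hosts several snoRNAs, rose as well, from -1.74, -1.69 and -1.50 to -0.77, -1.04 and -0.92 (log2 change 0.73, SE 0.10, adjusted p = 0.0158). Its call was lost without WT replicates 1 or 2 or C3aR-/- replicate 3, with adjusted p-values up to 0.0617. Snhg14, the imprinted host of the snoRNA clusters of the Prader-Willi region, fell from -0.52, -0.68 and -0.55 to -0.96, -1.25 and -1.20 (log2 change -0.55, SE 0.10, adjusted p = 0.028). The adjusted p of Snhg14 rose to as much as 0.0925, and its call held only when C3aR-/- replicate 1 was the array left out.

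The wider list of snoRNA hosts, which includes genes that the array describes under other names, had 19 comparable probes of 17 genes. Of these 2 were higher, 2 lower and 15 not called, with a median log2 change of 0.06 against 0.03 for all probes. The second lower one was Snhg15, at -0.23, -0.31 and -0.13 in WT and -0.50, -0.77 and -0.88 in the C3aR-/- samples (log2 change -0.49, SE 0.12, adjusted p = 0.0467). Its other probe differed by a similar -0.46 (SE 0.12, adjusted p = 0.0642), but shares 20 to 22 letters with probes of other transcripts such as Endov and Utp6. The part of this sharing in its value was not tested. The first probe kept its call only with C3aR-/- replicate 1 left out and lost it with each other array, with an adjusted p up to 0.123. Gas5, the growth arrest transcript, differed by 0.18 and 0.20 in its 2 probes (adjusted p = 0.148 and 0.167), and Snhg8 by -0.09. The called host transcripts thus lay in both directions.

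Of 15 comparable probes of 9 genes for proteins that package snoRNAs, 1 was lower and 0 higher, where 11.7% of all probes were called. The lower one was a probe of Nop58, a core protein of box C/D snoRNA particles (log2 change -0.42, adjusted p = 0.0172), and the other 3 Nop58 probes differed by -0.25, -0.16 and 0.24, none called. Fbl, the methyltransferase of these particles, differed by -0.22 (adjusted p = 0.1).

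The wider list of microRNA hosts had 13 probes, of which 6 were comparable and the others too dim. Among these 6, 0 were higher and 1 lower, with a median log2 change of -0.21. The lower one was Mir22hg. Its level was 1.65, 1.58 and 1.64 in WT and 0.79, 0.78 and 0.95 in C3aR-/- cortex, with no overlap and an SD of 0.04 and 0.10. The difference on the log2 scale was -0.78 (SE 0.07, adjusted p = 0.00702), that is 1.72-fold lower, and it was called whichever array was left out. The nearest coding probe on the same strand, of Tlcd2, differed by -0.09 (adjusted p = 0.634). The mature microRNA, whose sequence is given above, was not measured.

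Mir124-2hg, the host of a neuronal microRNA, passed the filter through WT alone and was not called. It was at -3.20, -3.40 and -3.10 in WT and at -7.60, -5.46 and -4.89 in C3aR-/- cortex, where 1 of 3 arrays was well above background. The fitted log2 change was -2.75 (SE 0.67, adjusted p = 0.0511), and -1.94 (adjusted p = 0.016) without C3aR-/- replicate 1, the lowest array. These rest in part on values below background; with such values raised to the dimmest signal well above background on their array, the difference was -1.98. Dleu2, host of the miR-15 and miR-16 pair, differed by 0.09 (adjusted p = 0.366). The 2 member probes of Mir99ahg differed by -0.18 and -0.24 and were not called. Brighter Mir99ahg probes with other identifiers, which are not members, differed by -0.09, 0.39 and -0.02, none called. Of 21 comparable probes of microRNA pathway proteins such as Drosha and Dicer1, 1 was called (adjusted p = 0.0233), a Tnrc6b probe above background on 1 of 3 WT arrays. Its fitted log2 change was 0.68, or 0.62 with dim values raised in the same way, and the other Tnrc6b probe differed by 0.05.

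**Figure D3:**
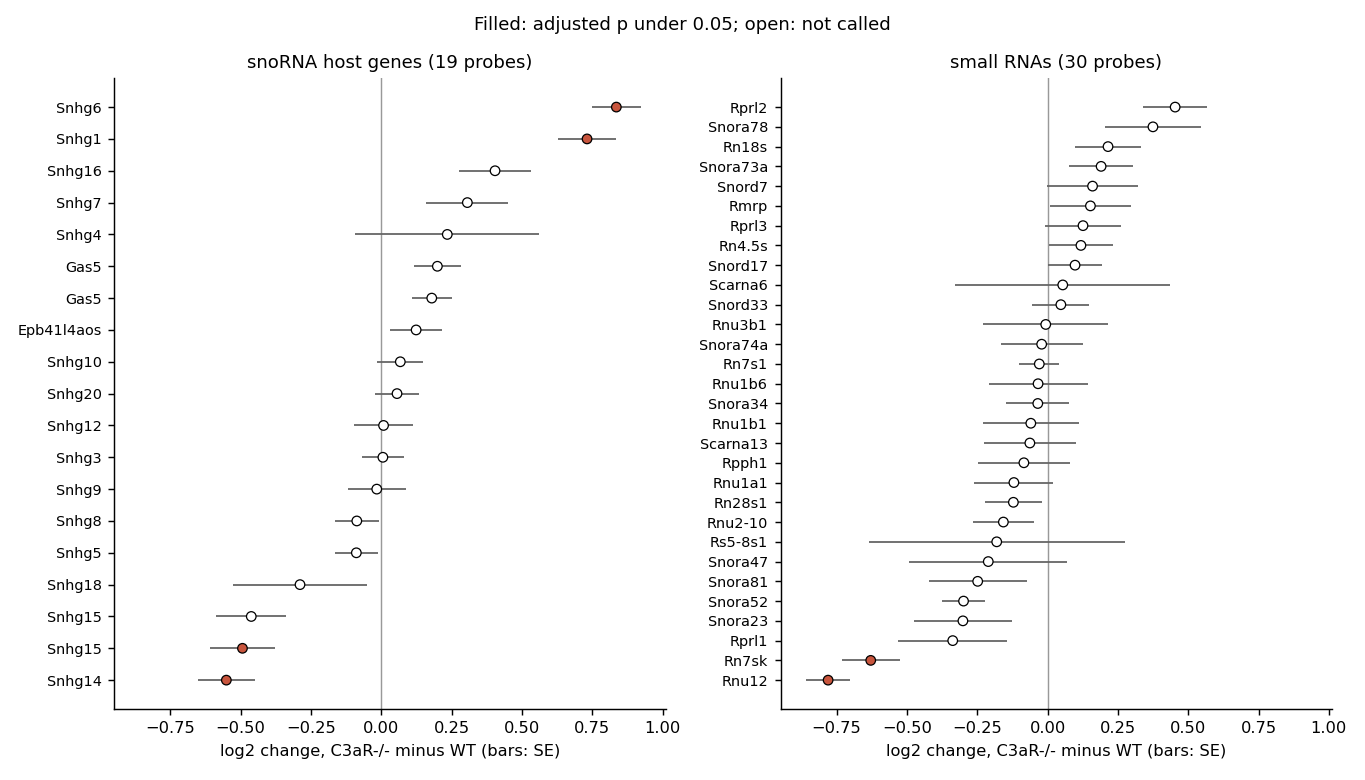
Log2 change (C3aR-/- minus WT) with its standard error for the 19 comparable probes of snoRNA host genes (left) and the 30 of small RNAs (right), each sorted by size. Filled points have an adjusted p under 0.05; Snhg6 at 0.84 and Rnu12 at -0.78 stand at the ends of their panels.

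Small RNAs, a class of small nuclear, nucleolar, ribosomal and similar RNAs, had 30 of 31 probes comparable. Most lack the poly(A) tail that the labelling of such arrays generally starts from, so their signal depends on how they are primed. Of the 30, 0 were higher, 2 lower and 28 not called, with a median log2 change of -0.03. Both lower ones act in the nucleus, as do uncalled members of the class such as the major spliceosomal RNAs given below.

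Rnu12 encodes the U12 small nuclear RNA of the minor spliceosome. It was at 1.52, 1.68 and 1.504 in WT and at 0.87, 0.73 and 0.77 in C3aR-/- cortex, with no overlap. On the log2 scale it fell by 0.78 (SE 0.08, adjusted p = 0.00795), and it was called whichever array was left out.

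Rn7sk encodes 7SK, the RNA that holds the elongation factor P-TEFb inactive. It was at 1.40, 1.30 and 1.36 in WT and at 0.79, 0.52 and 0.86 on the C3aR-/- arrays (log2 change -0.63, SE 0.10, adjusted p = 0.0223). Its adjusted p was up to 0.0686 without any of the WT arrays or C3aR-/- replicate 3. The major spliceosomal RNA probes Rnu1a1, Rnu1b1, Rnu1b6 and Rnu2-10 differed by -0.16 to -0.03 and were not called. Rn18s differed by 0.21 (adjusted p = 0.257), Rn28s1 by -0.12 (adjusted p = 0.449), Rmrp by 0.15 and the RNase P RNA Rpph1 by -0.08 (both not called). The RNase MRP and P-like probes Rprl1, Rprl2 and Rprl3 did not share a sign, at -0.34, 0.45 and 0.13.

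Among 18 comparable probes of widely expressed and nuclear non-coding RNAs, 1 was higher and 2 lower, with a median log2 change of 0.10. Lncpint, induced by p53, was at -0.81, -1.10 and -0.94 in WT and at -0.18, -0.31 and -0.37 in the C3aR-/- samples (log2 change 0.67, SE 0.10, adjusted p = 0.0181). Its second probe differed by 0.45 (adjusted p = 0.0889). The first lost its call without WT replicates 2 or 3 or C3aR-/- replicates 2 or 3, with an adjusted p up to 0.0562, and the second gained one without WT replicate 1 (log2 change 0.61, adjusted p = 0.0371). The lower ones were Rn7sk and a probe of Norad. Neat1, the scaffold of paraspeckles, differed by 0.52 and 0.55 in 2 probes (adjusted p = 0.225 and 0.12), with an SE of 0.26 and 0.20. Tug1 differed by -0.12, Firre by -0.09 and Oip5os1 by 0.26 (adjusted p = 0.0525).

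Paraspeckle proteins gave 2 higher and 1 lower of 15 comparable probes. Both higher ones were probes of Rbm14 (log2 changes 0.45 and 0.95, adjusted p = 0.0265 and 0.0071), and the lower one was 1 of the 2 Hnrnpk probes (log2 change -0.41). The other Hnrnpk probe, the brighter, differed by 0.25 (adjusted p = 0.0582). Of 17 comparable probes of nonsense-mediated decay factors, which degrade many non-coding transcripts, 1 was called, a Smg9 probe dim on all WT arrays that passed through C3aR-/- cortex alone. It was at least 1.14-fold higher (adjusted p of the fitted change = 0.0304). Another Smg9 probe differed by 0.06. The third was at 0.39, 0.33 and 0.25 in WT and at -2.53, 0.60 and 0.51 in C3aR-/- cortex, so only C3aR-/- replicate 1 lay below WT.

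Transcripts whose probes lie at several places were next compared probe by probe. There were 56 non-coding genes with at least 2 comparable probes, of which 41 had none called and 15 had exactly 1 called. None had more than 1 called, whereas 142 of the 1004 protein-coding genes with any called probe had more than 1 (14.1%); this difference was not tested. In 5 of the 15 the probes differed in sign, and they did so in 315 of the 1004 protein-coding genes. These counts and the order of probes along transcripts were looked at after values had been seen.

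Norad, an abundant RNA that binds Pumilio proteins, had 4 comparable probes on the minus strand. Counted from the 3′-most probe, the log2 changes were 0.04 at 0 bases, 0.16 at 2049 bases, -0.24 at 2345 bases and -0.55 at 3071 bases. The last was at -1.92, -1.99 and -1.81 in WT and at -2.38, -2.49 and -2.51 in C3aR-/- cortex (SE 0.08, adjusted p = 0.0152), and was the only one called. Its call was lost without WT replicate 1 or C3aR-/- replicates 2 or 3, with an adjusted p up to 0.0632. The 3′-most probe was at 5.34, 5.31 and 5.37 in WT and at 5.40, 5.34 and 5.41 in C3aR-/- cortex, with overlapping genotypes.

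Kcnq1ot1, the imprinted RNA that silences neighbours of Kcnq1, also had 4 comparable probes. The probe nearest its 3′ end was at -3.24, -3.45 and -3.38 in WT and at -4.08, -4.12 and -4.35 on the C3aR-/- arrays (log2 change -0.83, SE 0.10, adjusted p = 0.0113). This probe was called whichever array was left out. The other 3 probes differed by 0.04, -0.24 and -0.09, and none was called. The probe at 0.04 spread widely, between 0.34 and 1.78 in WT. Of 10 comparable probes of imprinted RNAs, 2 were lower (this one and Snhg14) and 0 higher, with a median log2 change of -0.04. Airn, at -0.15 and 0.02, and Peg13, at 0.15, were not called.

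Over 52 non-coding genes with ordered probes on 1 strand within 100 kb, the change at the 5′-most probe minus that at the 3′-most had a median of 0.06 and was negative in 21 (40.4%). The same measure over 4901 protein-coding genes had a median of 0.07 and was negative in 39.4%. In Norad the difference was negative, the less frequent sign.

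**Figure D4:**
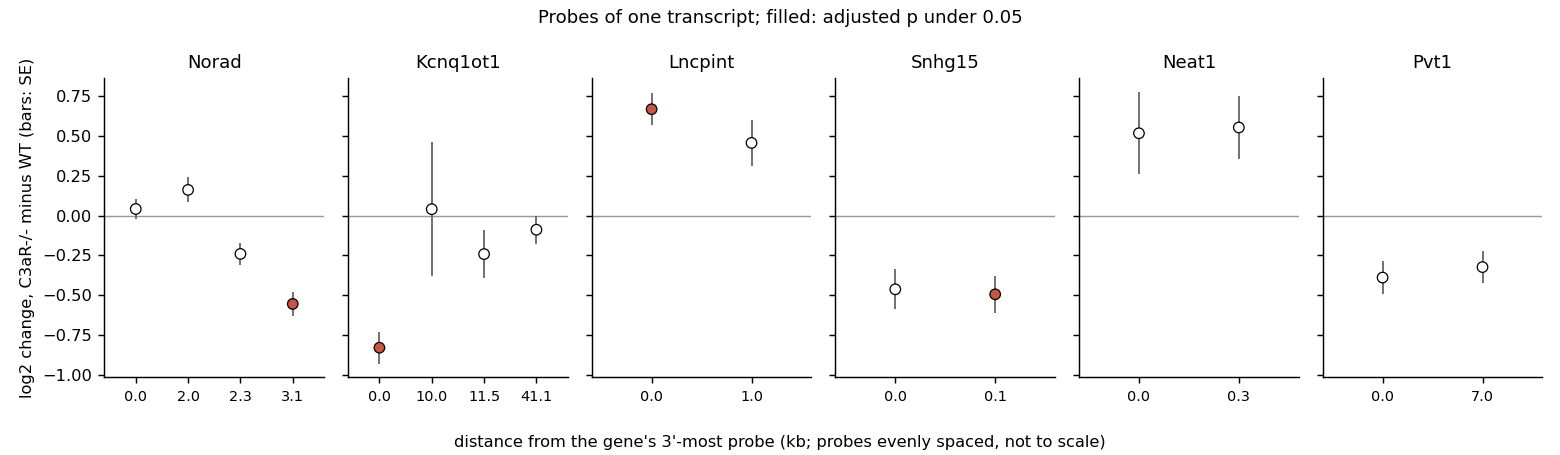
Log2 change (C3aR-/- minus WT) with its standard error for each comparable probe of 6 non-coding genes, ordered by distance from the 3′-most probe in kb. Filled points have an adjusted p under 0.05; in Norad the probes run from 0.04 to -0.55, and both Lncpint probes lie above 0 and both Snhg15 probes below it.

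Non-coding variants are transcripts of genes that also make a protein. Of 30 comparable variant probes, 5 were higher and 2 lower (23.3%, against 11.7% of all probes tested), with a median log2 change of 0.02. Of the 5 called higher, Sec14l1, Hnrnpa1 and Etfb were above background on every array, while Ccdc169 and Ager were dim on all WT arrays and passed through C3aR-/- cortex alone.

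Ager, the gene of the receptor for advanced glycation end products, had a variant probe at -6.83, -6.06 and -6.08 in WT and at -4.70, -5.02 and -4.87 in C3aR-/- cortex. All WT arrays were dim for it, which gives a rise of at least 1.203-fold. The adjusted p of 0.0191 is that of the fitted change, which uses the dim values, and not of this bound. The call was lost without WT replicate 2 or C3aR-/- replicates 2 or 3, with an adjusted p up to 0.0677. The variant probe shares 46 letters, in capitals above, with another Ager probe that differed by 0.66 (adjusted p = 0.107). The 3 comparable probes of coding Ager transcripts differed by -0.18, 0.11 and 0.19, none called. Ccdc169 likewise was dim on all WT arrays. Its bound is below 1-fold, so no fold is given (adjusted p of the fitted change = 0.0103), and its coding probe differed by -0.65 (adjusted p = 0.132).

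Sec14l1, a lipid transfer protein gene, had a variant at -0.15, -0.13 and -0.11 in WT and 0.31, 0.24 and 0.25 in the C3aR-/- samples (log2 change 0.39, SE 0.06, adjusted p = 0.0189). The variants of Hnrnpa1, a splicing regulator, and Etfb, an electron carrier of fatty acid oxidation, differed by 0.38 and 0.29. Trappc13 (-0.46) and Trim52 (-0.42) were the lower ones. Each of these 5 lost its call without at least 4 of the 6 arrays, with an adjusted p up to 0.133. Of the 2 coding probes of Hnrnpa1, the brighter differed by 0.04 and the other by 0.69 (adjusted p = 0.00743). Over 28 variants with a comparable coding probe, 16 had the same sign as its brightest, with a Pearson r of -0.39 across pairs, and in 0 were both called. The r includes the fitted changes of Ccdc169 (1.80 against -0.65) and Ager (1.46 against -0.18), which use WT values below background. It is a description only.

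The other probes were grouped by the array's descriptions as RIKEN cDNAs, predicted genes and the rest, and mostly have no known function. These groups also hold RNAs described above, such as Mir124-2hg among the RIKEN cDNAs and Neat1 in the rest. RIKEN cDNAs gave 15 higher and 26 lower of 374 comparable probes (10.96%), predicted genes 9 higher and 22 lower of 175 (17.7%), and the rest 4 higher and 11 lower of 103 (14.6%). Over all probes tested 11.7% were called. The median log2 changes of the groups were 0.01, -0.02 and 0.02. These 3 groups held 8 of the 10 largest falls.

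Gm16223 (chr5:42607453-42607512) was at -2.75, -2.91 and -2.68 in WT and at -4.24, -4.56 and -4.36 in C3aR-/- cortex, 3.05-fold lower (log2 change -1.61, SE 0.11, adjusted p = 0.0031). AI662270 (chr11:83040021-83040080) was at -3.98, -3.91 and -4.04 against -5.01, -5.11 and -5.08, with an SD of 0.06 and 0.05 (log2 change -1.09, SE 0.07, adjusted p = 0.00249). Both were separated by several times their spread.

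Of those near the 75th percentile, AI506816 (chr5:23198113-23198172) was at -0.25, -0.25 and -0.09 in WT and at -1.19, -1.40 and -1.18 on the C3aR-/- arrays (log2 change -1.06, SE 0.09, adjusted p = 0.00554). 1700028B04Rik (chr7:29282394-29282453) was at 0.70, 0.81 and 0.79 against -0.05, -0.27 and -0.25 (log2 change -0.96, SE 0.09, adjusted p = 0.00614). The other 4, Gm19510, Gm15760, Gm4371 and Gm11961, had log2 changes of -1.17, -1.14, -1.13 and -0.98. All 10 largest falls, the pseudogenes Ptma-ps2 and Cyp4b1-ps2 included, were above background on every array and kept their call whichever array was left out.

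Of the 10 largest rises, 5 were of probes dim on all WT arrays. The largest fitted one, B930025P03Rik (chr8:10870464-10870523), was among them and was at least 1.49-fold higher, with C3aR-/- values of -4.30, -4.98 and -4.39 (adjusted p of the fitted change = 0.00778). AA388235 was at least 1.13-fold higher in the same way. 5830418P13Rik (chr9:103363446-103363505) was above background on every array, at -0.43, -0.51 and -0.38 in WT and at 0.45, 0.59 and 0.95 in C3aR-/- cortex. It rose 2.15-fold (log2 change 1.103, SE 0.14, adjusted p = 0.0115), with an adjusted p of 0.0507 without WT replicate 2.

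2900052N01Rik was at -4.40, -4.40 and -4.51 in WT and at -3.41, -3.51 and -3.12 in the C3aR-/- samples (log2 change 1.09, SE 0.11, adjusted p = 0.00847). 3300005D01Rik differed by 1.03 (SE 0.24, adjusted p = 0.0455), a call lost when any array but WT replicate 1 was left out, with an adjusted p up to 0.115. The second probes of B930025P03Rik, AI662270, Gm11961 and Zim3 were too dim to compare. With normexp background correction, which adds an offset and so compresses dim values, the fitted change of B930025P03Rik was 0.42 (adjusted p = 0.0571, with the 75th percentile) and 2 of all called members reached 2-fold, against 18.

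**Figure D5:**
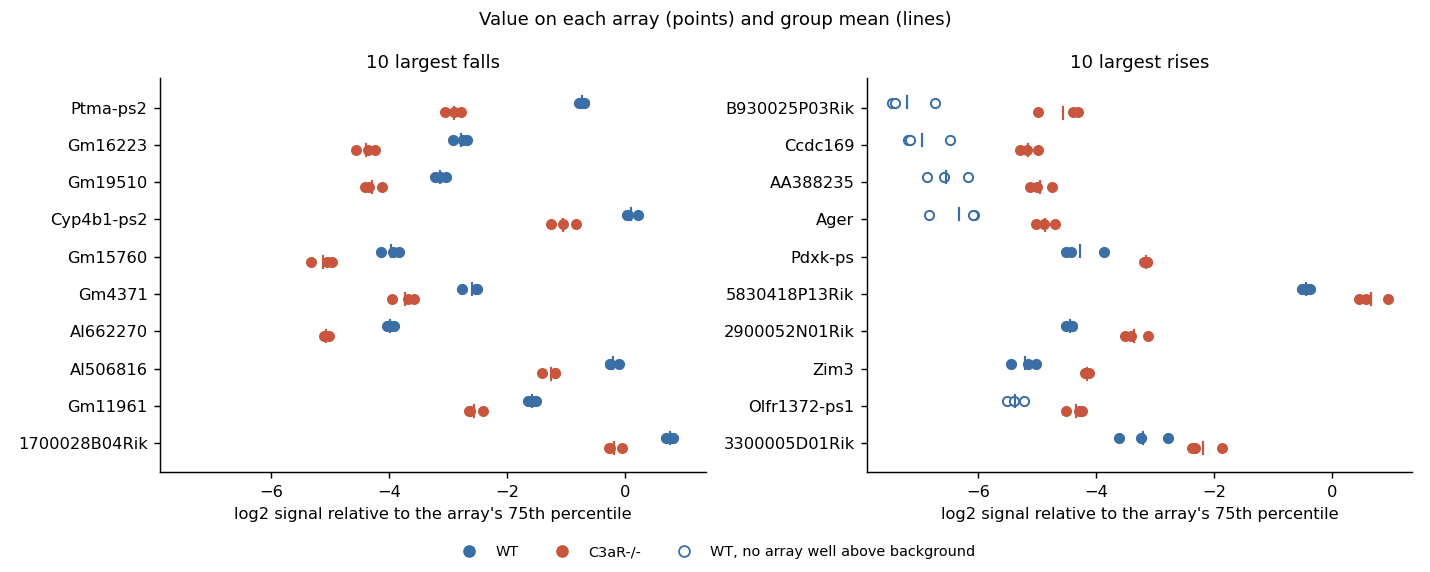
Level on each array (points, log2, 75th percentile of the array at 0) and group means (short lines) for the 10 largest called falls (left) and rises (right), WT in blue and C3aR-/- in red. Open blue circles mark probes dim on all WT arrays, 5 of the 10 rises; Zim3 was above it on 1 WT array.

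A protein-coding probe lay within 50 kb of 517 comparable members, and the nearest one had the same sign in 278 (53.8%), with a Pearson r of 0.02 between log2 changes. For the 98 opposite-strand pairs within 5 kb the r was -0.08, and for the 27 same-strand pairs it was 0.49. Those 27 include probes that may lie in the neighbour's own transcript, such as snoRNAs in introns. Of 71 called members with a neighbour, 10 had one that was called too, with the same sign in 6. Of all comparable protein-coding probes 10.6% were called, and the 2 shares were not compared by a test. Examples are Cistr (0.77) beside Calcoco1 (0.62, adjusted p = 0.0131) and, in opposite directions, Rdh18-ps (-0.42) beside the retinol dehydrogenase gene Rdh16 (0.70, adjusted p = 0.00559).

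Within 10 Mb of C3ar1 (chr6:122798222-122798281), 12 comparable members of 9 genes were found, and 1 was called (8.33%). This was E130112N10Rik, with a log2 change of -0.41 (adjusted p = 0.0251), a call lost without any one of the 6 arrays (adjusted p up to 0.077). Called members were otherwise spread over the chromosomes, the most on chromosome 11 with 16 of 77. The probes of higher, lower and uncalled members had a similar median GC content, at 44.2%, 43.3% and 43.3%.

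Sharing of sequence was found in 53 comparable members, whose probes hold 20 or more letters in a row that occur in a probe of another position or transcript. Of these 8 were called (Ager, Gm6981, Gm8709, Pitpnm2os1, Trim52, Zfp133-ps, 1110028F11Rik and 1700112J16Rik). For 1110028F11Rik (log2 change -0.59) the other probe, of an unnamed transcript, differed by -0.51 (adjusted p = 0.0254). For Trim52 (log2 change -0.42) it differed by 0.00 (adjusted p = 0.984). Signals of these 8 cannot be assigned to 1 transcript with certainty. Neighbours, shared letters and the region of C3ar1 were examined after values had been seen.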

How the data were processed

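The labels' protocols give 0.2 µg of RNA as the input for each Cy3-labelled cRNA. Per the file headers, Agilent Feature Extraction 10.7.1.1 read the scanner images and wrote, for each spot, a background-subtracted intensity (the processed signal), a mean and a background intensity, and quality marks. The authors also deposited log2 values of these arrays; that table has equal sorted values on every array, as quantile normalisation gives; its other steps are not given in the sources used here, and it served as an alternative only. The log2 processed signal was set relative to the 75th percentile of transcript spots on the same array. Spots flagged as outliers were left out, which removed 1 of the 2477 members, and spots of one probe were averaged. A probe was kept when all its spots were well above background on all 3 arrays of a genotype. The genotypes were compared per probe in R 4.3.3 by two-sided tests of limma 3.58.1 (functions lmFit, eBayes), Benjamini-Hochberg adjusted over all 30930 probes, with a threshold of 0.05. "Called" means past that threshold, and every adjusted p is from limma. The script was tested on simulated data. Symbols came from a RefSeq table of GRCm38.p6, which matched 2407 members and changed 81 names; coordinates are those of the array files (mm9).

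Classes followed the array's descriptions. The named transcripts are the 10 largest called rises and falls, up to 5 called probes of each class by p, and members of fixed lists; other members named beside them were chosen after their values were seen. Members, lists and tests were chosen with earlier results of these data known. Alternatives were other scalings, background corrections, filters, variance moderation, 1 probe a gene, a replicate block and each array left out.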

Additional observations from a re-analysis of the deposited data

How the results depend on the processing

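With 3 arrays per genotype on 2 slides, most calls are lost when an array other than C3aR-/- replicate 1 is left out (64 of the 113 kept without that one), genotype and slide coincide, and dim probes carry bounds only. Of the 90 named probes, none reversed a called direction in the 17 alternative settings, and 13 of the 43 uncalled ones changed sign while uncalled. Of the 47 named called probes, 13 kept the call under every setting that tested them. All 113 called members kept their sign wherever they were tested. The count of 113 called members was 108 to 133 under median scaling, the percentile over detected probes, quantile normalisation, normexp with the 75th percentile, the authors' deposited log2 table, the all-array filter, 1 probe a gene and eBayes with a trend. The count was 169 with normexp and quantile normalisation, where the count of other non-coding probes was 147 in place of 96, and 44 without a filter, where 2476 members entered and 1.64% of all probes were called (pseudogenes 5, other 32). The antisense count of 3 was 5 with median scaling, 6 with quantile normalisation and 7 with normexp and quantile. With an array left out the counts ranged from 29 to 74 over all members, from 4 to 6 for pseudogenes, from 2 to 3 for antisense, from 2 to 4 for host genes and from 21 to 62 for other RNAs. With median scaling 57 were higher and 55 lower, against 40 and 73; lower calls over all probes went from 47.0% to 32.8% with it.

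Replicate numbers do not pair the samples here: deviations of same-numbered arrays from their group means correlated at 0.04, 0.01 and -0.06. A replicate block gave 22 called members (3 pseudogene, 2 antisense, 2 host gene and 15 other probes), all of them among the 113, with 1.92% of all probes called.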
